A study of Homo sapiens with 4 samples.

Results

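Polycomb repressive complex PRC2 was examined through 10 of its subunit genes, EZH2, EZH1, EED, SUZ12, RBBP4, RBBP7, JARID2, MTF2, PHF1 and EPOP, and through the transcripts annotated for them. The 10 genes were taken by symbol from 56865 genes with transcripts in the files, and all 10 passed the filter on low values. They have 109 annotated transcripts among 193505 matched in all, and 67 of the 109 could be tested. Poly(A)-selected RNA was sequenced from a human triple-negative breast cancer line, written MDA-MD-468 in the cell line label and MDA-MB-468 in the growth protocol, at passage 12. One group was cultured with MS1943 at 5 µM for 3 days and the other with its vehicle, DMSO, for which no time is labelled, with 2 libraries each. MS1943 is named in the study's title as a degrader of EZH2, and the transcripts measured here do not give protein levels. The labels mention dishes seeded in duplicate and do not say whether the cultures were independent, and a p-value here reflects only how far these libraries spread, which may be technical.

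PRC2 methylates lysine 27 of histone H3, a mark of silenced genes. EZH2 or its paralog EZH1 carries the catalytic domain, SUZ12 is the scaffold, and EED reads the trimethylated product and stimulates the enzyme. RBBP4 and RBBP7 are histone-binding proteins that PRC2 shares with other chromatin complexes, such as NuRD, SIN3 and CAF-1. The core is joined by cofactors in alternative assemblies. Polycomb-like proteins, PHF1, MTF2 and PHF19, bring PRC2 to unmethylated CpG islands, and EPOP joins the same assembly, called PRC2.1. JARID2 and AEBP2 define the other assembly, PRC2.2. EZH2, EED and other PRC2 genes are known as targets of E2F transcription factors, which drive genes of the dividing cell.

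The MS1943 libraries held 69878745 and 47564377 estimated reads and the DMSO libraries 64720699 and 71378893. Mitochondrially encoded genes took 3.11% to 3.52% of matched reads with MS1943 and 1.65% to 1.78% with DMSO. Transcripts annotated as other than protein coding took 7.55% to 7.56% of the reads of coding genes with MS1943 and 6.74% to 7.09% with DMSO. The part of these differences in the results was not tested. Of 7 breast epithelial markers, all 7 were detected, and the lowest mean of any of them in either group was 133 CPM (counts-per-million, here scaled by edgeR's TMM factors). Among the receptors that the triple-negative class is defined by, ERBB2 averaged 65.0 CPM with MS1943 and 81.8 CPM with DMSO, and ESR1 4.97 and 3.21 CPM. PGR had no read in any library; a count of 0 with a floor of 3 reads allows between 0.0422 and 0.0634 CPM, unscaled. Of 11 leukocyte, fibroblast and endothelial markers, 9 averaged under 1 CPM in both groups, PTPRC and CD3E among them. The other two, CD14 and COL1A1, averaged 86.8 and 29.6 CPM with MS1943, against 155 and 20.9 CPM with DMSO.

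Several subunits exist as transcripts that differ in a short coding stretch, and the following segments are those that separate the most abundant transcripts of EZH2, EZH1, JARID2, PHF1 and MTF2. Sequences are from the GENCODE 29 transcripts on hg38, 5′ to 3′ on the RNA strand. Capitals mark the alternative segment, and lower case up to 10 neighbouring bases in the spliced transcript.
EZH2, last 27 bases of exon 3 of EZH2-203, lacking in EZH2-208 (chr7:148846470-148846496, minus strand): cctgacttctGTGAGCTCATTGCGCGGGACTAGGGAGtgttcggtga
EZH2, exon 4 of EZH2-203, lacking in EZH2-202 (chr7:148832634-148832750, minus strand): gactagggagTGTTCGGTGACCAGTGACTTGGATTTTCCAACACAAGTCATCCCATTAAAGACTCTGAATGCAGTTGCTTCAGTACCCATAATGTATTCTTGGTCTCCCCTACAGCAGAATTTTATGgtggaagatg
EZH1, last 27 bases of exon 4 of EZH1-202, lacking in EZH1-201 (chr17:42727635-42727661, minus strand): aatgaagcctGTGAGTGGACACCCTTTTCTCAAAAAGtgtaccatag
JARID2, the 45 coding bases of the first exon of JARID2-201, an exon lacking in JARID2-202 (chr6:15246540-15246584, plus strand): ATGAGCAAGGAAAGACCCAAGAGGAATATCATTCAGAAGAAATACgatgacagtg
PHF1, first 11 bases of exon 12 of PHF1-202, lacking in PHF1-211 (chr6:33414955-33414965, plus strand): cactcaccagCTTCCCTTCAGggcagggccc
MTF2, exon 11 of MTF2-201, lacking in MTF2-202 (chr1:93129278-93129448, plus strand): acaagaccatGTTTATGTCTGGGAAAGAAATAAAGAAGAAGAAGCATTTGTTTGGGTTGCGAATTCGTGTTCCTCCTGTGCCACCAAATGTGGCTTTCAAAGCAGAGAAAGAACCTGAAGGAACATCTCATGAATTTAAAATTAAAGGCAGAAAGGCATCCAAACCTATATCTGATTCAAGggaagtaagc

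The EZH2 and EZH1 segments are both 27 bases long, sit at the end of an exon and open with the same 5 bases, GTGAG, so that skipping them leaves an intron that starts with GT. Elsewhere they differ, with 10 of 27 positions identical in all. The segments of 27, 117 and 171 bases keep the reading frame, whereas the 11 bases of PHF1 do not, and PHF1-211 is annotated as a target of nonsense-mediated decay. JARID2-202 starts from another first exon and has 3222 coding bases, against 3738 in JARID2-201.

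After MS1943, 2 of the 10 subunit genes rose, 7 fell and EED did not pass the test. The 2 that rose were PHF1, 2.66-fold, and EZH1, 1.84-fold, while EPOP fell to 0.50 times its DMSO level, RBBP4 to 0.69 times and MTF2 to 0.71 times. EZH2 itself, SUZ12, RBBP7 and JARID2 fell by 0.19 to 0.23 on the log2 scale. The test was edgeR's quasi-likelihood F test with Benjamini-Hochberg adjustment over 19358 genes at an adjusted p of 0.05, and it called 59.3% of all genes tested, 30.0% higher and 29.4% lower. Against that background, 9 called genes of 10 is a description of these subunits and shows nothing particular to them. Their median log2 fold change was -0.20, and that of all genes tested -0.01. With scaling by total reads alone the median of all genes was -0.12, and 39.9% of calls were higher, against 50.5% with TMM scaling. In bulk RNA, fewer cells of a type and less RNA per cell cannot be told apart.

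**Figure D1:**
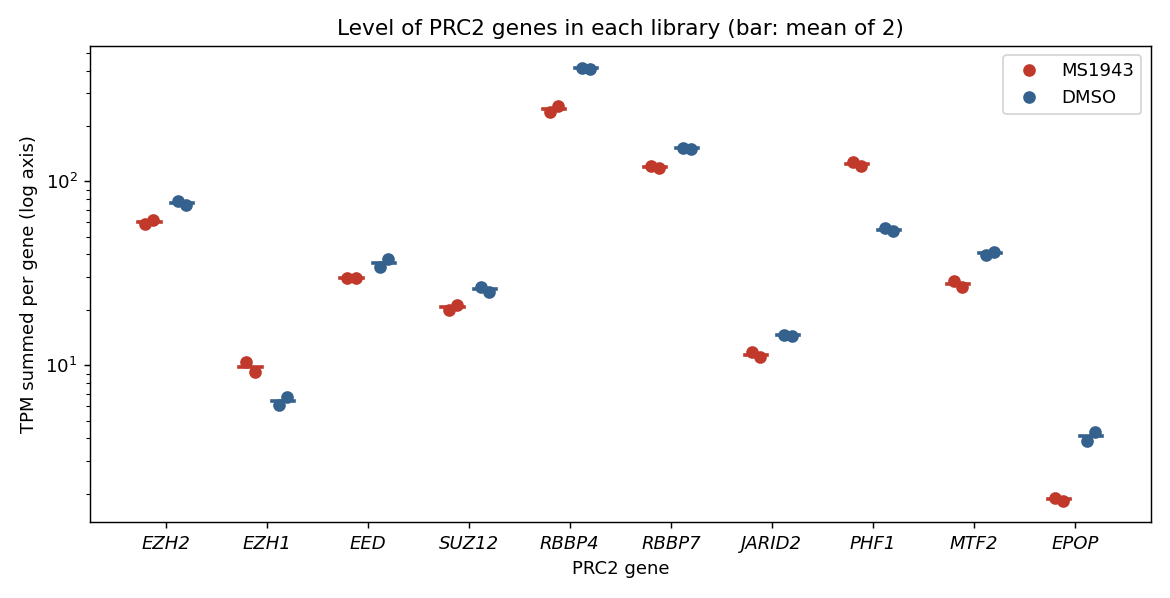
Level of each PRC2 gene in TPM (transcripts-per-million, scaled for transcript length) on a log axis, with 1 point per library, MS1943 in red left of DMSO in blue, and a bar at each mean. The MS1943 points lie above the DMSO points for EZH1 and PHF1 and below them for the other 8 genes.

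Levels per transcript length spanned more than 2 orders of magnitude. RBBP4 was the highest, at 248 ± 13.8 TPM with MS1943 and 411 ± 5.36 TPM with DMSO (SD, n = 2), and EPOP the lowest, at 1.87 ± 0.05 and 4.11 ± 0.30 TPM. Much of the RBBP4 level came from short transcripts not annotated as coding, RBBP4-216, RBBP4-214 and RBBP4-203. They averaged 73.9, 45.6 and 30.6 TPM with MS1943 and 118, 69.9 and 59.8 TPM with DMSO. The rank of RBBP4, like that of every gene here, is that of all its transcripts together. With DMSO the order was RBBP4, RBBP7, EZH2, PHF1, MTF2, EED, SUZ12, JARID2, EZH1 and EPOP, and no neighbours in it overlapped between libraries. With MS1943, PHF1 (127 and 121 TPM) overlapped RBBP7 (122 and 118 TPM), and both stood above EZH2 (58.9 and 61.6 TPM). EED (29.6 and 29.8 TPM) there stood above MTF2 (28.7 and 26.6 TPM). JARID2 (11.7 and 11.05 TPM) and EZH1 (10.5 and 9.21 TPM) came close without overlap.

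EZH2 (ENSG00000106462, chr7:148807383-148884321, minus strand) had 104 and 108 CPM with MS1943, against 126 and 117 CPM with DMSO. The groups did not overlap, and the log2 fold change was -0.19 ± 0.06 (SE, edgeR adjusted p = 0.0061). EZH1 (ENSG00000108799, chr17:42700275-42745049, minus strand) had 23.6 and 22.8 CPM with MS1943, against 12.8 and 12.5 CPM with DMSO. Both MS1943 libraries were well above both DMSO libraries (log2 fold change 0.88 ± 0.07, adjusted p = 2.9e-09). In TPM, EZH2 exceeded EZH1 5.62- and 6.69-fold in the MS1943 libraries, against 12.8- and 11.03-fold in the DMSO libraries. The ratio of the paralogs thus averaged 6.16 ± 0.76 with MS1943 and 11.9 ± 1.27 with DMSO (SD, n = 2). It includes transcripts not annotated as coding, and was not taken over coding transcripts alone. Of the EZH1 means of 9.84 TPM with MS1943 and 6.41 TPM with DMSO, the coding EZH1-202 gave 5.95 and 2.96 TPM. EZH1-210, a retained-intron transcript of 594 bases, gave 1.63 and 0.81 TPM. An exact permutation test of 2 libraries against 2 has 6 arrangements, of which 2 are as extreme as any result, so it cannot pass 0.05, and ratios and shares carry no call. The coding sequences of EZH2-203 and EZH1-202 are identical at 70.7% of 2145 aligned bases and share no identical run longer than 20 bases.

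SUZ12 (ENSG00000178691, chr17:31937018-32001045, plus strand) had 64.9 and 69.1 CPM with MS1943, against 80.02 and 73.4 CPM with DMSO. The log2 fold change was -0.20 ± 0.06 (edgeR adjusted p = 0.0080). Leaving out MS1943 replicate 1 ended this call (edgeR adjusted p = 0.0613), and so did leaving out DMSO replicate 1 (0.0525). EED (ENSG00000074266, chr11:86244544-86278813, plus strand) had 37.2 and 38.3 CPM with MS1943, against 38.5 and 38.9 CPM with DMSO (-0.04 ± 0.06, adjusted p = 0.622). Scaled by total reads alone it was called lower (-0.15, adjusted p = 0.0325). In TPM, EED stood at 29.7 ± 0.13 with MS1943 and 35.9 ± 2.45 with DMSO, without overlap. TPM divides by transcript length, and with transcript length as an offset in the count test the EED log2 fold change was -0.17 ± 0.07 (adjusted p = 0.0815). The ratio of EZH2 to SUZ12 in TPM was 2.91 ± 0.04 with MS1943 and 2.95 ± 0.01 with DMSO (SD, n = 2).

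The pseudogene SUZ12P1 shares runs of up to 178 identical bases with SUZ12-201, so Salmon may have split reads between them. SUZ12P1 had 7.06 and 7.45 CPM with MS1943, against 9.78 and 8.96 CPM with DMSO. It fell too (-0.37 ± 0.10, edgeR adjusted p = 0.0032). Listed pseudogenes of EZH2, EED and RBBP4 had at most 0.064 CPM (unscaled) in any library.

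RBBP4 (ENSG00000162521, chr1:32651142-32686211, plus strand) had 244 and 252 CPM with MS1943, against 369 and 346 CPM with DMSO. This was the steepest fall among the core subunits (-0.53 ± 0.06, edgeR adjusted p = 2.1e-07). Its paralog RBBP7 (ENSG00000102054, chrX:16839283-16870414, minus strand) had 169 and 162 CPM with MS1943, against 199 and 190 CPM with DMSO (-0.23 ± 0.06, adjusted p = 0.0013). The ratio of RBBP4 to RBBP7 in TPM was 2.07 ± 0.16 with MS1943 and 2.73 ± 0.01 with DMSO (SD, n = 2), without overlap. It includes the short RBBP4 transcripts not annotated as coding, and was not taken over coding transcripts alone. Their coding sequences are identical at 76.4% of aligned bases, with no identical run longer than 26 bases. RBBP4 shares 1706 exonic bases with SYNC on the other strand, which averaged 0.54 CPM with MS1943 and 0.26 CPM with DMSO. RBBP7 shares 179 exonic bases with TXLNG on the other strand, and the library kit did not mark strand. TXLNG averaged 32.1 CPM with MS1943 and 29.5 CPM with DMSO (0.12 ± 0.07, adjusted p = 0.117).

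Among the cofactors of PRC2.1 the change ran in both directions. PHF1 (ENSG00000112511, chr6:33410399-33416453, plus strand) had 169 and 163 CPM with MS1943, against 62.8 and 62.1 CPM with DMSO (log2 fold change 1.41 ± 0.05, edgeR adjusted p = 6.1e-14). Of all genes tested, 95.3% had a lower fold change. MTF2 (ENSG00000143033, chr1:93079235-93139081, plus strand) had 41.7 and 40.6 CPM with MS1943, against 57.8 and 58.3 CPM with DMSO (-0.50 ± 0.06, adjusted p = 3.1e-07). PHF19, the remaining Polycomb-like gene, averaged 26.1 CPM with MS1943 and 38.5 CPM with DMSO (-0.56 ± 0.06, adjusted p = 3.4e-07). Of the summed TPM of the 3 Polycomb-like genes, PHF1 held 69.2% ± 0.15 with MS1943 and 38.5% ± 0.28 with DMSO (SD, n = 2). MTF2 held 15.4% ± 0.31 with MS1943 and 28.6% ± 1.39 with DMSO, and PHF19 15.4% ± 0.16 and 32.9% ± 1.11. In none of the 3 did the groups overlap. These sums take in transcripts not annotated as coding, and the shares were not taken over coding transcripts alone. The last exon of PHF1 and the gene CUTA on the other strand share 12 exonic bases, and CUTA averaged 172 CPM with MS1943 and 186 CPM with DMSO (-0.11 ± 0.06, adjusted p = 0.118).

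EPOP (ENSG00000273604, chr17:38671703-38675421, minus strand), which links PRC2.1 to the elongin proteins, had 5.18 and 4.98 CPM with MS1943, against 9.83 and 10.5 CPM with DMSO. It rested on 344 and 228 reads with MS1943 and 647 and 788 reads with DMSO, the fewest of the 10 genes (-0.999 ± 0.102, edgeR adjusted p = 7.1e-08). JARID2 (ENSG00000008083, chr6:15246296-15522040, plus strand), a nucleosome-binding cofactor of PRC2.2, had 49.9 and 46.9 CPM with MS1943, against 56.5 and 54.8 CPM with DMSO (-0.20 ± 0.06, adjusted p = 0.0059). AEBP2 averaged 22.6 CPM with MS1943 and 21.2 CPM with DMSO and was not called (0.09 ± 0.07, adjusted p = 0.304). Of 5 further PRC2 cofactors listed, 4 could be tested, 2 fell (PHF19 and LCOR, -0.19 ± 0.06) and none rose. EZHIP, which encodes an inhibitor of PRC2, had 0 reads in all 4 libraries.

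**Figure D2:**
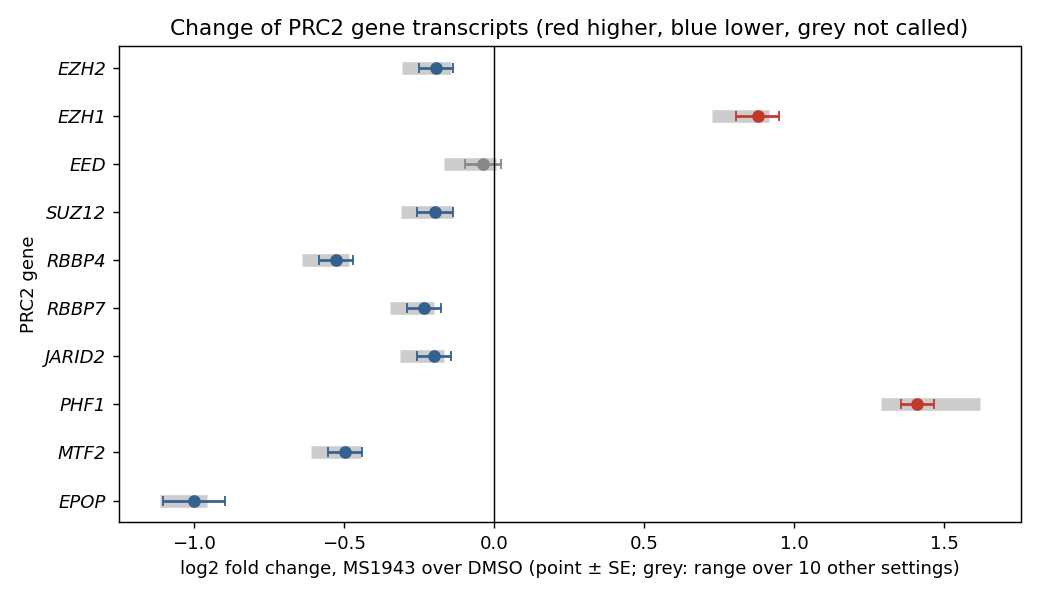
Log2 fold change of each PRC2 gene, MS1943 over DMSO, as a point with its SE, coloured by call, over a grey bar for the range across 10 other settings. PHF1 (1.41) and EZH1 (0.88) lie right of 0 under every setting shown, and the EED bar reaches both sides of 0.

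Both H3K27 demethylase genes rose in the count test. KDM6B averaged 66.4 CPM with MS1943 and 36.1 CPM with DMSO (0.88 ± 0.06, edgeR adjusted p = 3.5e-10). KDM6A, its X-linked relative, averaged 30.9 CPM with MS1943 and 21.6 CPM with DMSO (0.51 ± 0.07, adjusted p = 4.2e-06). By TPM the KDM6A groups stayed apart. Those of KDM6B overlapped, with 19.6 and 23.2 TPM with MS1943 against 10.6 and 19.7 TPM with DMSO. Among EPOP's partners, USP7 rose (0.55 ± 0.05), ELOB fell (-0.25 ± 0.06) and ELOC was not called (0.14 ± 0.06, adjusted p = 0.0581). Of the complexes that share RBBP4 and RBBP7, NuRD had 2 higher and 7 lower genes of 11, SIN3 3 higher and 2 lower of 8, CAF-1 2 lower of 2 and the NURF list 1 higher and 1 lower of 3, beside 30.0% higher and 29.4% lower of all genes tested. The deacetylase gene HDAC1 fell by 0.66 ± 0.06 on the log2 scale and the histone chaperone gene CHAF1A by 0.65 ± 0.06. Median log2 fold changes were -0.26 for NuRD, 0.04 for SIN3 and -0.58 for CAF-1.

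Genes of the dividing cell were lower with MS1943. Of 20 listed E2F and proliferation genes, 18 fell, E2F3 rose and CCNE1 was not called, beside 29.4% lower of all genes tested, and their median log2 fold change was -1.05. Their summed level was 1907 and 1912 CPM with MS1943, against 3650 and 3553 CPM with DMSO. CCNA2, which encodes cyclin A, averaged 38.3 CPM with MS1943 and 119 CPM with DMSO (-1.64 ± 0.06, edgeR adjusted p = 1.2e-14). Each PRC2 gene that fell did so by a smaller log2 fold change than this median, though EPOP (-0.999 ± 0.102) lay within its SE of the median. The part of cell division in those falls was not tested. The 3 protein-coding genes whose pattern over the 4 libraries lay closest to that of EZH2 were AGGF1 (0.0074), TXNDC12 (0.012) and TPD52 (0.0151). The measure was the Euclidean distance of centred log2 CPM, among 9811 genes of at least 10 CPM. With 4 libraries and that many genes, some small distances arise in any case, and common control with EZH2 was not tested.

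Promoter sequences from RefSeq (GRCh38.p14, 250 bases before to 50 after each annotated start) were found for 9 of the 10 genes and searched on both strands for the E2F-type motifs TTTCCCGC, TTTCGCGC, TTTGCCGC and TTTGGCGC, which cannot match the same 8 bases. Of 35116 promoters in the table, 3.31% held a match. Of the 13 promoters of the 9 genes, 4 held a match, each from a different gene, and are shown because they include genes that changed in either direction. Capitals mark the motif, given 5′ to 3′ on the strand of the gene.
EZH2 (chr7:148884275-148884298, minus strand): ctgccgcgTTTGGCGCtcggtccg
SUZ12 (chr17:31936810-31936833, plus strand): cccctaatTTTCCCGCgaattcag
MTF2 (chr1:93079280-93079303, plus strand): ggcagtccGCGGGAAAccaaaatg
EZH1 (chr17:42745140-42745163, minus strand): gggttttgGCGGCAAAtgacagta
The matches lie in promoters of genes that fell (EZH2, SUZ12, MTF2) and in that of EZH1, which rose. A match describes the letters of this window and is not a binding site.

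At the transcript level, 14 of the 67 tested PRC2 transcripts passed edgeR's quasi-likelihood test, 5 higher and 9 lower, where 12.4% of 74941 transcripts tested passed in all, 6.23% higher and 6.21% lower. The 5 that rose were EZH1-202 and PHF1-201, PHF1-202, PHF1-210 and PHF1-211. The 9 that fell included 5 transcripts of RBBP4 with EED-203, JARID2-201, MTF2-201 and EPOP-201, the sole transcript of its gene. No transcript of EZH2 passed. With each library left out in turn fewer passed, among all transcripts as well as here. DESeq2 called 5 higher and 15 lower, where it called 17.1% of all 74941 transcripts. Whether a transcript's share of its gene changed is a separate question. edgeR's diffSpliceDGE called 0 of 66 PRC2 transcripts at an adjusted p of 0.05 (1.71% of 68355 in all, 0.910% higher and 0.797% lower). At an unadjusted p under 0.05 there were 3, EZH1-201, RBBP7-202 and PHF1-209, beside 7.28% in all and 3.28% lower. limma's diffSplice called 4 (EED-201, MTF2-205, PHF1-202 and PHF1-209), with 5.90% called in all, 3.03% higher and 2.86% lower. Of 26 transcripts holding at least 5% of the reads of a gene with several transcripts, 13 had shares that did not overlap between groups, beside 48.5% of all such transcripts, so that this count is near the background.

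**Figure D3:**
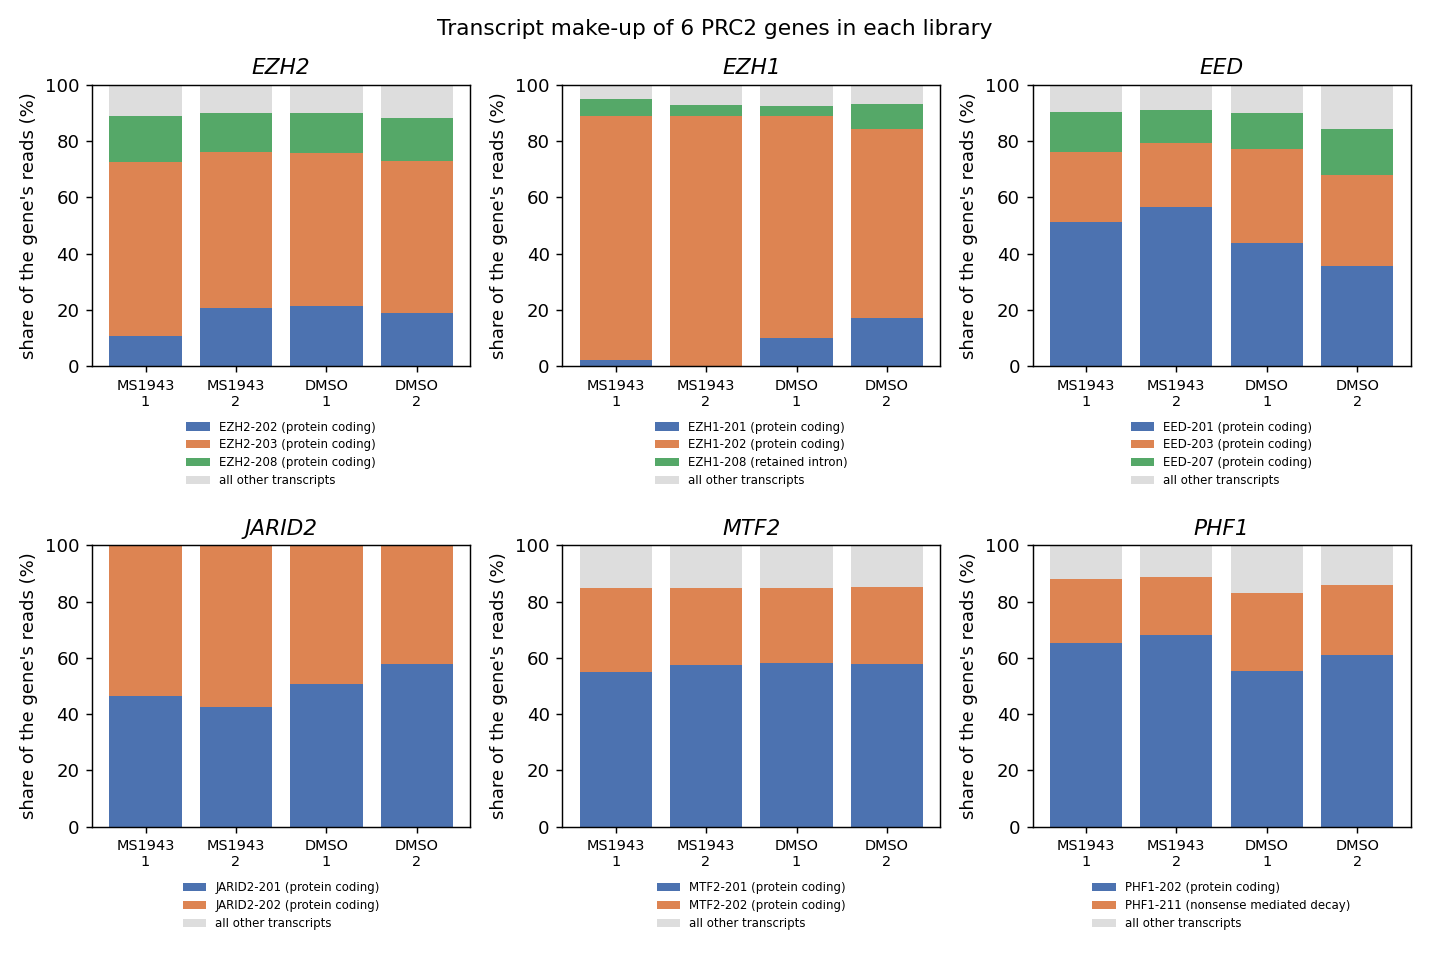
Share of the reads of 6 PRC2 genes (y axis, percent) held by each transcript of at least 5%, in stacked bars for the 2 MS1943 and the 2 DMSO libraries. EZH1-201 is at 0% to 2.28% with MS1943 and 9.82% to 17.0% with DMSO, and EED-201 and PHF1-202 hold larger shares in both MS1943 libraries than in either DMSO library.

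EZH2 reads were assigned mainly to EZH2-203, which held 62.1% and 55.5% with MS1943 and 54.3% and 54.1% with DMSO. EZH2-202, without the 117-base exon, held 10.6% and 20.6% with MS1943, against 21.3% and 18.8% with DMSO, with 1 MS1943 library below both DMSO libraries and the other between them. Reads without this exon, all of EZH2-202, also formed a row added to the gene test after the data were seen. They fell by 0.58 ± 0.18 on the log2 scale (adjusted p by edgeR = 0.0093), and without MS1943 replicate 1 the value was -0.15. Such added rows were tested with the variation of genes (BCV 0.0478), below that of transcripts (0.370), so their p-values may be too small. In the transcript test EZH2-202 was not called (-0.63 ± 0.35, edgeR adjusted p = 0.322). EZH2-208, without the 27-base segment, held 16.3% and 14.1% with MS1943 and 14.2% and 15.4% with DMSO. Over all transcripts that span the 27 bases, those without them took 17.1% ± 2.78 of reads with MS1943 and 17.4% ± 1.74 with DMSO (SD, n = 2), a difference below the spread of either pair.

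In EZH1 the groups did not overlap for its own 27-base segment. Transcripts without its 27 bases took 2.36% and 0% of the spanning reads with MS1943, against 10.2% and 19.2% with DMSO. This rests on 36 and 0 estimated reads with MS1943 and on 82 and 173 with DMSO, and for the library at 0 a floor of 3 reads allows up to 0.297%, counting error only. Transcripts with the 27 bases held 1478 and 1009 reads with MS1943, against 724 and 727 with DMSO. In the same added rows of the gene test, transcripts with the segment rose by 1.10 ± 0.08 and those without it fell by 2.53 ± 0.51 on the log2 scale (adjusted p by edgeR = 6.5e-10 and 3.1e-04). These p-values too rest on the variation of genes, below that of transcripts, and may be too small. Without MS1943 replicate 2 the value for transcripts without the segment was -1.73. Without MS1943 replicate 1, the remaining MS1943 library held 0 such reads, and the fitted value of -9.80 depends on the prior count and is no bound. EZH1-201 itself was not called in the transcript test (-2.64 ± 1.38, edgeR adjusted p = 0.294) nor by diffSpliceDGE (unadjusted p = 0.0057, adjusted p = 0.193). Salmon's own uncertainty in assigning reads to such similar transcripts is not recorded here, and the p-values do not include it.

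EED-201, the most abundant form, held 51.1% and 56.4% of the gene's reads with MS1943, against 43.9% and 35.6% with DMSO. EED-203 held 24.9% and 23.0% with MS1943, against 33.4% and 32.5% with DMSO, and for neither transcript did the groups overlap. EED-203 had a log2 fold change of -0.57 ± 0.11 in the transcript test (edgeR adjusted p = 0.0413), a call that ended without each library in turn (adjusted p from 0.126 to 0.161).

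JARID2 reads fell into 2 forms with different first exons. The form starting downstream, JARID2-202 with a trace transcript, took 53.5% and 57.4% with MS1943, against 49.4% and 42.01% with DMSO. The groups did not overlap. The longer form JARID2-201 fell by 0.48 ± 0.08 on the log2 scale as an added row of the gene test (edgeR adjusted p = 2.8e-05), while the shorter form was not called (0.08 ± 0.08, adjusted p = 0.421). Both rows were tested with the variation of genes, below that of transcripts. In the transcript test JARID2-201 fell by 0.55 ± 0.11 (adjusted p = 0.0474), which was lost without each library in turn (adjusted p from 0.0937 to 0.158).

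Make-up by transcript class could be tested in 7 of the 10 genes, and PHF1 was the one called as changed. Protein-coding transcripts held 70.0% and 72.9% of its reads with MS1943, against 59.5% and 64.8% with DMSO. The other transcripts, chiefly PHF1-211, held 30.04% and 27.1% with MS1943, against 40.5% and 35.2% with DMSO. Both classes rose, the coding one by 1.57 ± 0.06 and the other by 0.97 ± 0.10 on the log2 scale (adjusted p by edgeR = 9.0e-07 and 1.1e-04). The difference of the non-coding class from the gene was -0.41 (diffSpliceDGE adjusted p = 0.0400), where 3.27% of 18000 class rows were called in all, 2.51% higher and 0.761% lower. The call ended with no filter (adjusted p = 0.0583), without MS1943 replicate 1 (0.110), without MS1943 replicate 2 (0.301) and without DMSO replicate 1 (0.286). Transcripts without the 11 bases that open exon 12 took 27.5% and 25.8% of spanning reads with MS1943, against 33.2% and 29.2% with DMSO.

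**Figure D4:**
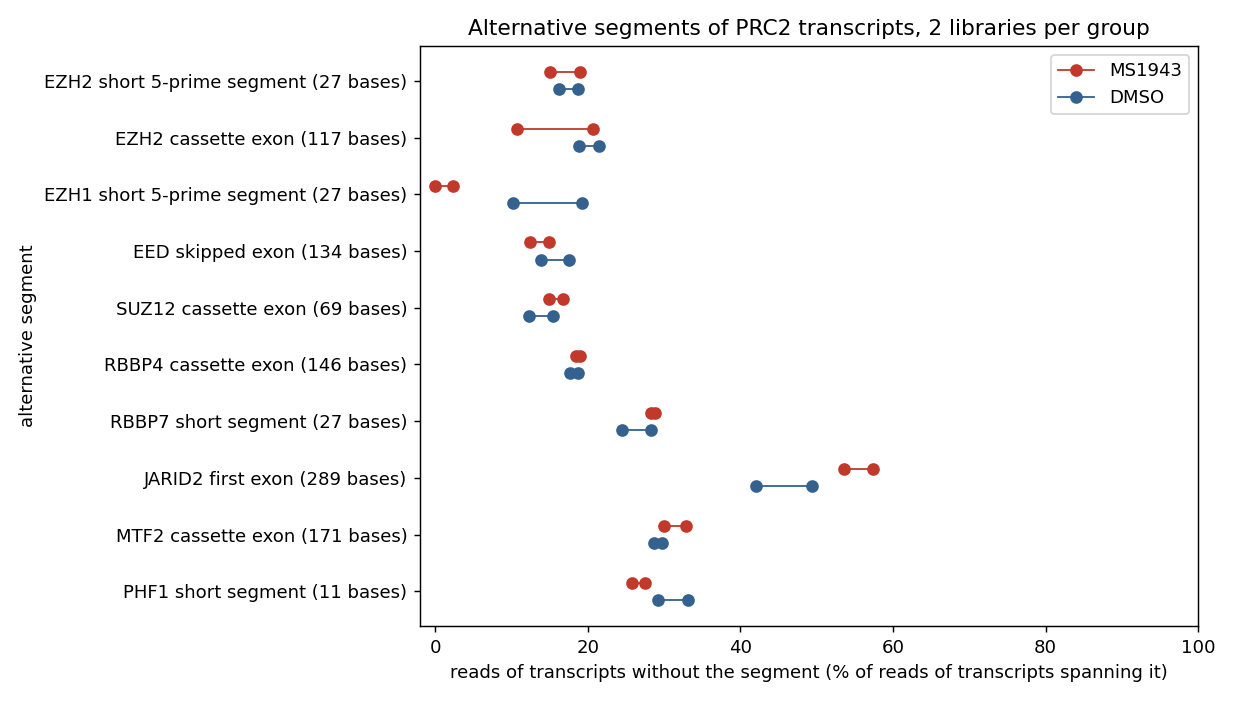
Reads of transcripts without each of 10 alternative segments, as a percentage of reads of transcripts that span it (x axis), with 1 point per library, MS1943 in red above DMSO in blue. The groups lie apart for EZH1 (0% to 2.36% against 10.2% to 19.2%) and JARID2 (53.5% to 57.4% against 42.01% to 49.4%), and overlap for both EZH2 segments shown.

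For the segments of the remaining subunits, mean shares differed by 2.25 percentage points or less. SUZ12 transcripts without the 69-base exon 4 took 15.8% ± 1.37 with MS1943 and 13.8% ± 2.21 with DMSO (SD, n = 2), and the RBBP4 transcripts without the 146-base exon 3 took 18.7% ± 0.43 and 18.2% ± 0.73. RBBP7 transcripts without 27 bases at the start of exon 4 took 28.6% ± 0.33 with MS1943 and 26.3% ± 2.64 with DMSO. MTF2 transcripts without the 171-base exon took 31.4% ± 1.99 with MS1943 and 29.2% ± 0.81 with DMSO. By reads, the RBBP7 and MTF2 groups did not overlap, and the SUZ12 and RBBP4 groups did. By TPM the RBBP7 groups overlapped, with 32.4% and 31.9% with MS1943 against 28.3% and 32.0% with DMSO. The MTF2 groups overlapped too, with 47.7% and 45.7% with MS1943 against 43.7% and 46.3% with DMSO. Among whole transcripts, RBBP4-202 held 39.8% and 39.9% of its gene's reads with MS1943, against 35.7% and 35.3% with DMSO, without overlap, and RBBP4-206 held 12.3% and 9.09% against 15.1% and 12.0%, with overlap. RBBP4-202 is the longest transcript of its gene, at 7943 bases, and averaged 16.4 TPM with MS1943 and 23.0 TPM with DMSO. Its mean share differed by 4.37 percentage points in reads and by 1.03 in TPM. Transcripts of MTF2 not annotated as coding held 14.4% and 14.3% with MS1943, against 12.5% and 10.9% with DMSO, without overlap. RBBP4 held 29.2% and 29.9% of its reads in transcripts not annotated as coding with MS1943, against 29.1% and 30.8% with DMSO. Shares of reads weigh a transcript by its length, and in TPM the part of these short transcripts was larger. With MS1943, RBBP4-216, of 501 bases, took 5.69% and 5.97% of reads but 70.5 and 77.4 TPM of the gene's 238 and 257 TPM. Both RBBP4 classes fell (-0.56 ± 0.07 coding and -0.58 ± 0.06 other, edgeR adjusted p = 2.7e-04 and 9.3e-05). By class, 3 PRC2 classes rose and 8 fell of 17 tested, beside 44.5% of all 28234 class rows called, 22.5% higher and 22.0% lower.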

How the data were processed

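RNA-seq libraries, 2 per group, were made with a poly(A) kit that does not mark strand. The deposited files hold, per the file headers, an estimated count of reads (NumReads) and a TPM value per transcript from Salmon. The submitters' processing notes name Salmon 0.9.1, R 3.4.3, DESeq2 and hg38. The transcript annotation is not given in the sources used here. Of 197653 transcripts, 193505 matched GENCODE 29 by identifier, and the other 4148 held 0.482% to 0.496% of reads and were left out.

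Estimated counts were summed per gene, per coding or other class and per alternative segment, and rounded. Rows were filtered with filterByExpr, scaled by TMM and tested with edgeR 4.0.16 (quasi-likelihood F test, trended dispersion, treatment as the only term) in R 4.3.3, with Benjamini-Hochberg adjustment over all rows at 0.05. Transcript and class usage was tested with edgeR's diffSpliceDGE. limma 3.58.1 and DESeq2 1.42.0 served as alternatives. TPM was used for levels and ratios, as deposited. Common variation between libraries (BCV) was 0.0478 for genes and 0.370 for transcripts. Sequences were read with Python 3.11.15. Libraries of a group were not the same library deposited again: a chi-square test of their counts gave 6.22 per degree of freedom with MS1943 and 6.92 with DMSO. The transcripts named are those with at least 5% of a gene's reads, and the other genes named come from the lists. The 10 genes, the lists and the segments were chosen with earlier results of these data known. Intervals and floors cover counting error only. One alternative segment of EED is not reported here.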

Additional observations from a re-analysis of the deposited data

How the results depend on the processing

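No paired analysis was possible because the labels give no replicate numbers, and the numbers 1 and 2 used here follow accession order and only name the libraries. The tests of alternative segments and their settings were chosen after the data were seen.

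The fold changes of the 10 genes kept their direction under RLE scaling, total reads, no filter, DESeq2, coding transcripts only, a length offset and each library left out, except EED, whose log2 fold change was 0.006 with coding transcripts only. DESeq2 called 15 PRC2 transcripts lower, where it called 17.1% of all transcripts in either direction. limma's diffSplice called 4 usage changes, beside 5.90% in all, and diffSpliceDGE without a filter 1, beside 0.672% in all. Without a filter 0 genes had classes that differed. Leaving out a library leaves 1 value in its group, so shares of the groups fail to overlap more easily by design. A larger count of shares without overlap under those settings is therefore not a result. The matching percentage of all transcripts is not given for them. With one library left out, 1 to 4 transcripts were higher and 0 to 1 lower, 0 to 1 genes had classes that differed, 0 to 3 transcripts had changed usage, and 17 to 21 shares did not overlap, where with all libraries 13 did not.

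Other values turned sign. With total reads JARID2-202 was at -0.0321, the JARID2 segment's transcripts without it at -0.0343 and the EED exon 8 transcripts with it at -0.0872. The non-coding class of RBBP7 was at 0.001 with RLE scaling and 0.0011 with DESeq2. With one library left out, SUZ12-204 ranged from -0.31 to 0.16, JARID2-202 from -0.14 to 0.16, the RBBP7 class from -0.15 to 0.15, EED with exon 8 from -0.0307 to 0.0598, SUZ12 without exon 4 from -0.22 to 0.23 and JARID2 without its first exon from -0.0616 to 0.216. The cause was not tested. The BCV between libraries was 0.370 for transcripts and 0.0478 for genes.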

Other observations

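Among genes of the complexes that share RBBP4 and RBBP7, members of one complex moved both ways. In NuRD, MBD3 averaged 60.4 CPM with MS1943 and 91.3 CPM with DMSO (log2 fold change -0.60 ± 0.05) and HDAC2 282 and 358 CPM (-0.34 ± 0.06). MTA3 averaged 96.5 CPM with MS1943 and 78.0 CPM with DMSO (0.31 ± 0.06) and GATAD2B 78.1 and 65.1 CPM (0.26 ± 0.05). In SIN3, SIN3B rose (0.43 ± 0.05) and SAP30 fell (-0.63 ± 0.08). In the NURF list, SMARCA1 rose (0.45 ± 0.06) and BPTF fell (-0.25 ± 0.05). All passed edgeR's quasi-likelihood test at an adjusted p of 0.05, as 59.3% of genes did.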
